A study of Mus musculus with 6 samples.

Results

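Peaks of open chromatin around 5 genes of formative and primed pluripotency, Fgf5, Otx2, Pou3f1, Foxd3 and Grhl2, were compared in mouse ESCs and in 2 kinds of expanded potential stem cells (EPSCs), named D-EPSCs and L-EPSCs after the Deng and Liu laboratories whose media they were kept in. The 5 genes were chosen by name from the 22367 protein-coding genes of the GENCODE M1 annotation, and every peak that overlapped a gene, or the 20 kb before or after it, was counted. These windows held 8 of 28965 ESC peaks, 23 of 50225 D-EPSC peaks and 20 of 46601 L-EPSC peaks. Merging the overlapping peaks of the 3 lists gave 27 regions around the genes, of 65518 in all.

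Open chromatin was mapped with ATAC-seq, a method that uses a transposase to insert sequencing adapters into accessible DNA. All cells came from J1 mESCs of strain 129SV, so each state is a single line, and 2 technical replicates per state stand behind a single peak list. ESCs were grown in serum with LIF and 2i, the GSK3 inhibitor CHIR99021 and the MEK inhibitor PD0325901. D-EPSCs were kept in N2B27 with KSR, LIF, CHIR99021, dimethindene maleate and minocycline hydrochloride. L-EPSCs were kept in DMEM/F12 with KSR, LIF, CHIR99021, PD0325901, A-419259, XAV939, JNK inhibitor VIII and SB203580. LIF and CHIR99021 were therefore common to the 3 states, and PD0325901 was in the ESC and L-EPSC media only. The lists hold no height and no value per replicate, so a difference between them describes these lists and carries no replicate test, and a position without a peak cannot be read as closed chromatin.

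Naive pluripotency is the state of the preimplantation epiblast, and formative and primed pluripotency are the states that follow as the epiblast implants and prepares for germ layer formation. FGF acting through MEK and ERK drives cells out of the naive state, and medium with 2i and LIF holds them there. Fgf5 encodes a secreted ligand and is the classical marker of the postimplantation epiblast. Otx2 and Pou3f1 encode homeodomain and POU factors that rise early on this path and take part in redirecting pluripotency factors to new enhancers. Foxd3 encodes a forkhead factor needed for pluripotent cells, and Grhl2 encodes a grainyhead factor that acts at enhancers of epithelial genes in formative cells.

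The sequences of the regions that the comparison turned on are given first, on mm9 and from 5′ to 3′ on the strand of the gene. The first 3 come from regions at or close to a start. The ESC peak before Fgf5, at chr5:98682884-98683051 on the plus strand, is the only ESC peak near a start of the 5 genes, and capitals mark the 49 bases that lay inside a peak of all 3 lists. The part common to both EPSC lists in the first stretch of Otx2, at chr14:49285970-49286208 on the minus strand, lies in an intron, and capitals mark CpG dinucleotides. The first 300 bases of the part common to both EPSC lists before Pou3f1, at chr4:124334366-124334665 on the plus strand, are shown in the same way.
Fgf5 upstream: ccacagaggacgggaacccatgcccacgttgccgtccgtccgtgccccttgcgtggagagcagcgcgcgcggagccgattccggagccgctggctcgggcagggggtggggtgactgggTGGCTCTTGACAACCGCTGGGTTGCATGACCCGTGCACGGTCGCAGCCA
Otx2 intron: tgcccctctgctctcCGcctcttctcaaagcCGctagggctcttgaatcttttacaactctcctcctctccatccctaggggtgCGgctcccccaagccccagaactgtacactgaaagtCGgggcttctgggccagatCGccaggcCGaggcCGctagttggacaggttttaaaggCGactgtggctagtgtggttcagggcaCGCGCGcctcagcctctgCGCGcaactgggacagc
Pou3f1 upstream: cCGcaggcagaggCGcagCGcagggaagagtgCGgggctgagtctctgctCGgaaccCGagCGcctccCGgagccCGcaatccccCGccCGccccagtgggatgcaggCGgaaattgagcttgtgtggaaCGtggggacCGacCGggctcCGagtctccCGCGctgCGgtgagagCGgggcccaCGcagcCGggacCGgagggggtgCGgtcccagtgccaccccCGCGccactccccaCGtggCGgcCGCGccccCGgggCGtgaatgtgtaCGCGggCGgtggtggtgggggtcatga

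A second set shows DNA more than 1 kb from a start. The Fgf5 intron is shown by 300 bases of its D-EPSC peak, at chr5:98684829-98685128 on the plus strand. The L-EPSC peak there starts at base 98684882, after the first word in capitals. The ESC peak in the first intron stretch of Grhl2, at chr15:37168541-37168708 on the plus strand, was met by a peak of each EPSC list. Capitals in both mark the motif words described further on. The ESC peak before Otx2, at chr14:49294150-49294446 on the minus strand, has in capitals the 280 bases common to the 3 lists. The central 300 bases of the part common to the 3 lists in the region before Foxd3, at chr4:99308706-99309005 on the plus strand, have their CpG dinucleotides in capitals and hold 3 of them, against 35 in the 300 bases before Pou3f1.
Fgf5 intron: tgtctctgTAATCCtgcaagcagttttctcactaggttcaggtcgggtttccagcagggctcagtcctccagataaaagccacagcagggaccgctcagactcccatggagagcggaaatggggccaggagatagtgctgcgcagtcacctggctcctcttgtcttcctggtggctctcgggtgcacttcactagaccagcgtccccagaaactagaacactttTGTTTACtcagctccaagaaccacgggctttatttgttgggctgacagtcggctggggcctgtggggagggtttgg
Grhl2 intron: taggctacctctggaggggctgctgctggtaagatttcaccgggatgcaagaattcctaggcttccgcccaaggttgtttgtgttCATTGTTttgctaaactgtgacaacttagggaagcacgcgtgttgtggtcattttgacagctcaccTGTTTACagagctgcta
Otx2 upstream: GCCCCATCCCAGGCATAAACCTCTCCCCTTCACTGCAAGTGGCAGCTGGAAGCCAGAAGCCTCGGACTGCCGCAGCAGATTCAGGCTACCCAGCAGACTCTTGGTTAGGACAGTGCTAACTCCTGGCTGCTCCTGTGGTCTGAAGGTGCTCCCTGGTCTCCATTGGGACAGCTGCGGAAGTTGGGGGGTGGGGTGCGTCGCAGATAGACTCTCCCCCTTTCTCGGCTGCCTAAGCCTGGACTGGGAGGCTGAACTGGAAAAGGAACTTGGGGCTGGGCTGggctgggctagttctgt
Foxd3 upstream: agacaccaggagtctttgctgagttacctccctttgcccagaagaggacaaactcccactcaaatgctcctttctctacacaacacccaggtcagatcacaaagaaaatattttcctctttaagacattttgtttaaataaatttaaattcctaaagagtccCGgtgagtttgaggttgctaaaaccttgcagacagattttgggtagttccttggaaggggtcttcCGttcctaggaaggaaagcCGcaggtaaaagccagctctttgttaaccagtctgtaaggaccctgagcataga

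Each of the 5 genes had more peaks in both EPSC lists than in the ESC list. Fgf5 had 1 ESC peak, 2 D-EPSC peaks and 3 L-EPSC peaks. Otx2 had 2, 4 and 3 peaks in the same order, and Pou3f1 had 0, 4 and 2. Pou3f1 was the only gene of the 5 with no ESC peak in its window, and its nearest ESC peak, 377 bp wide, lay 35.8 kb away at chr4:124370694-124371070. Foxd3 had 3, 5 and 8 peaks, and Grhl2 had 2, 8 and 4. No other protein-coding gene starts in any of the 5 windows. The EPSC list with more peaks was thus D-EPSC at Otx2, Pou3f1 and Grhl2, and L-EPSC at Fgf5 and Foxd3. The lead at Fgf5 rests on a 118 bp L-EPSC peak from base 98683461, beside one that ends at base 98683449, where D-EPSC has a single peak. D-EPSC peaks of 151 and 119 bp in Grhl2 likewise stand side by side, at bases 37209333 and 37209336, and were counted as separate peaks and regions. Of all coding genes, 56.5% had more peaks in D-EPSCs than in ESCs and 52.5% had more in L-EPSCs than in ESCs.

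**Figure D1:**
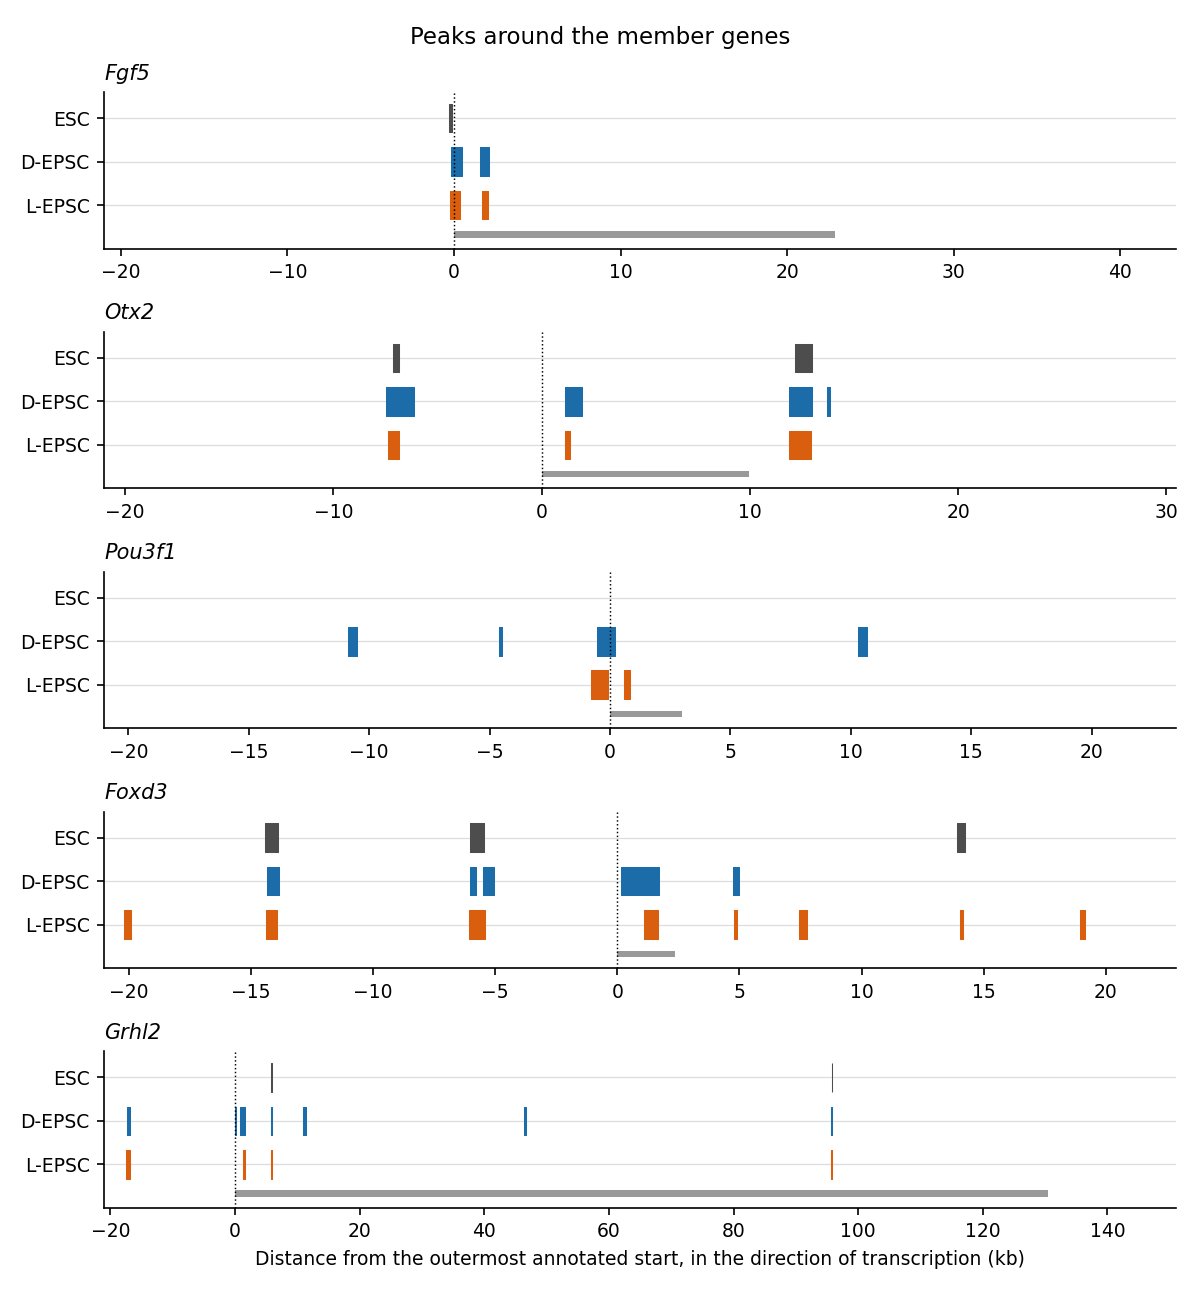
Peaks of the ESC, D-EPSC and L-EPSC lists (rows) around each gene, drawn to scale by distance in kb from the outermost annotated start, with the gene as a grey bar and the start as a dotted line. The ESC row is empty around Pou3f1, and 4 of the 5 genes have a D-EPSC peak within 1 kb of a start where the ESC list has none.

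The number of bases covered gave the same order in every gene, with D-EPSC above L-EPSC and L-EPSC above ESC. In the Fgf5 window, ESC peaks covered 168 bp, D-EPSC peaks 1158 bp and L-EPSC peaks 929 bp. For Otx2 the covered bases, in the same order, were 1107, 3411 and 1825, and for Pou3f1 they were 0, 1634 and 969. Foxd3 had the smallest relative spread, with 1439, 2965 and 2563 bp, and Grhl2 had 296, 2499 and 1157 bp. D-EPSC coverage exceeded ESC coverage in 5 of 5 genes, as in 74.1% of all coding genes, and L-EPSC coverage exceeded ESC coverage in 5 of 5, as in 70.5% of all. D-EPSC coverage exceeded L-EPSC coverage in 5 of 5, against 52.1% of all.

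Summed over the 5 genes, the peaks numbered 2.88 times those of ESCs in the D-EPSC list and 2.5 times in the L-EPSC list. The lists as a whole were 1.73 and 1.61 times as long. The peaks covered 3010 bp in ESCs, 11667 bp in D-EPSCs (3.88 times) and 7443 bp in L-EPSCs (2.47 times), while the whole lists covered 1.86 and 1.67 times as many bases as the ESC list. Pooled over the 5 windows, ESCs had 2.17 peaks per 100 kb, next to a median of 2.18 over all coding genes. In D-EPSCs they held 6.24 against a median of 3.74, and in L-EPSCs 5.42 against 3.46. A pooled value weighs the longest window, that of Grhl2, most, so it is not the same measure as a median over genes. Single genes varied around these pooled values. In ESCs the density ran from 0 at Pou3f1 to 7.08 at Foxd3, and Pou3f1, Grhl2 (1.17) and Fgf5 (1.59) were below the ESC median of all genes. In the EPSC lists only Fgf5 in D-EPSCs, with 3.18, and Grhl2 in L-EPSCs, with 2.35, were below the median of all genes. With the lists set to an equal length, by keeping the 28965 widest peaks of each, the counts were 8, 14 and 12 and the covered bases 3010, 10165 and 6106.

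**Figure D2:**
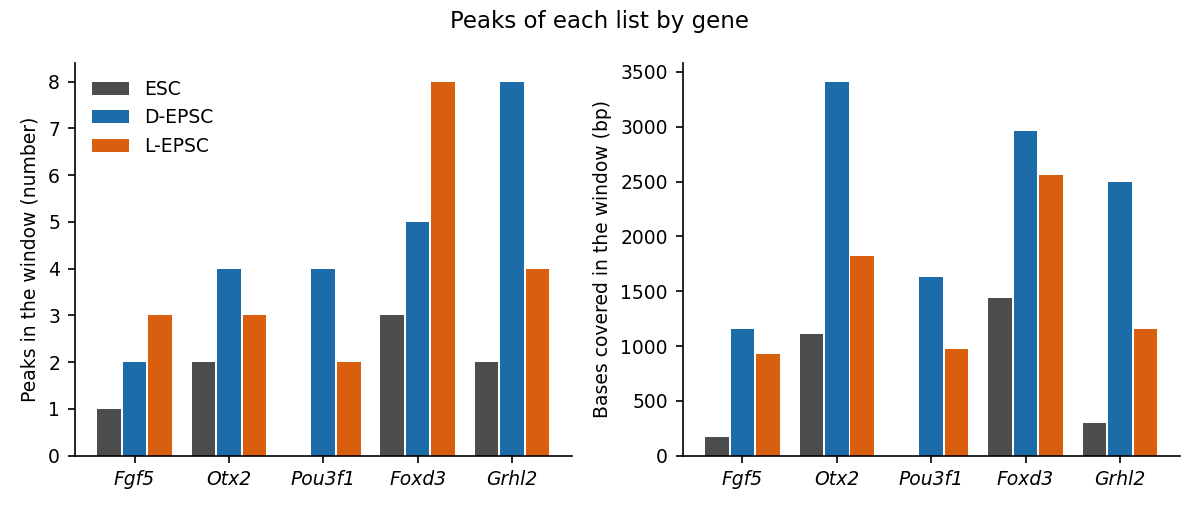
Number of peaks (left) and bases covered in bp (right) in the window of each gene, with a bar for each list and no error bars because each state has a single list. Both EPSC bars stand above the ESC bar in all 5 genes, and D-EPSC covers the most bases in each.

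The starts of the genes were examined next. A start was counted as having a peak when a peak lay within 1 kb of any annotated transcript start. In ESCs this held for 1 of 5 genes, Fgf5, where 52.3% of all coding genes had such a peak. In D-EPSCs it held for 5 of 5, against 64.2% of all coding genes, and in L-EPSCs for 3 of 5, Fgf5, Otx2 and Pou3f1, against 61.5%. Otx2, Pou3f1, Foxd3 and Grhl2, or 4 of 5, had a start peak in D-EPSCs and not in ESCs, a pattern found in 12.4% of all coding genes. Otx2 and Pou3f1, or 2 of 5, had one in L-EPSCs and not in ESCs, against 10.0% of all. Foxd3 and Grhl2, or 2 of 5, had one in D-EPSCs alone, against 3.30% of all.

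These last 2 genes lay close to the limit in L-EPSCs. The nearest L-EPSC peak stood 1074 bp from the Foxd3 start and 1285 bp from the nearest Grhl2 start, and at a limit of 2.5 kb all 5 genes had a start peak in L-EPSCs. Otx2 lay inside the limit, with its nearest L-EPSC peak 774 bp away, and at a limit of 500 bp 2 genes were left in L-EPSCs. No share of all coding genes was taken at these other limits. In ESCs the corresponding distances were 5465 bp for Foxd3, 5728 bp for Grhl2 and 6455 bp for Otx2, so that a limit of 2.5 kb still left 1 gene. The D-EPSC peaks reached the start itself at Fgf5, Pou3f1 and Grhl2 and lay 137 bp from it at Foxd3 and 169 bp from the nearest start at Otx2. At equal list length the start peaks were found in Fgf5 for ESCs, in all 5 genes for D-EPSCs and in Fgf5 and Pou3f1 for L-EPSCs, beside 52.3%, 59.4% and 57.0% of all coding genes.

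Genes with CpG-rich starts more often have a peak there, so base composition at the starts was also compared. CpG observed/expected, the count of CpG dinucleotides relative to that set by the amounts of C and G, was taken over 1 kb around the outermost start. It was 0.738 at Fgf5, 0.520 at Otx2, 0.958 at Pou3f1, 0.819 at Foxd3 and 0.757 at Grhl2, and its median over all coding genes was 0.549. Pou3f1 was at or above 96.1% of all genes, and Otx2 was the only gene of the 5 below the median. Of the 11638 coding genes at or above the Otx2 value, start peaks were found for 82.6% by the ESC list, 96.2% by the D-EPSC list and 94.1% by the L-EPSC list. This limit lies below the median, so the set is broad and not matched to the higher CpG values of the other genes. The 1 of 5 genes with a start peak in ESCs and the 3 of 5 in L-EPSCs were thus below these shares, and the 5 of 5 in D-EPSCs was not.

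**Figure D3:**
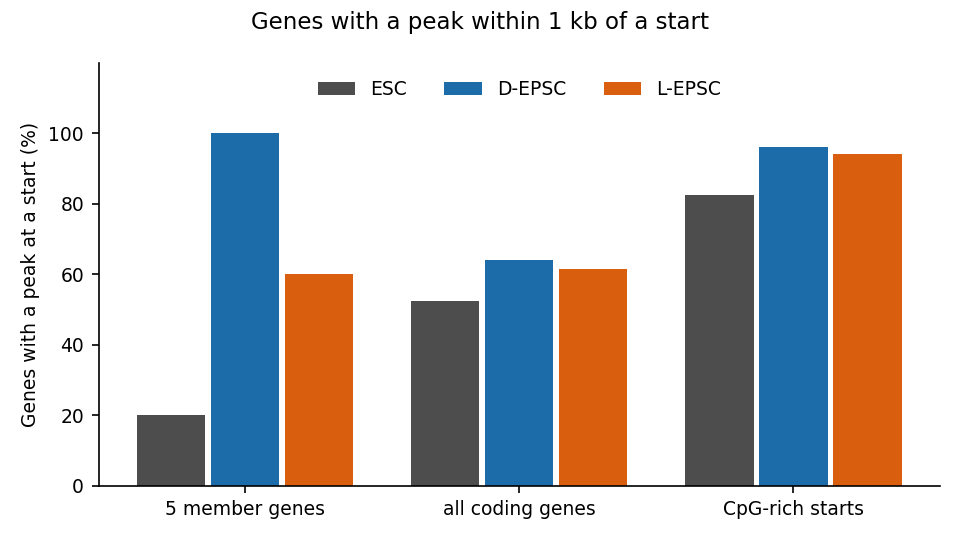
Percentage of genes with a peak within 1 kb of a start in each list, for the 5 genes, all 22367 coding genes and the 11638 coding genes with CpG observed/expected of at least 0.520. The 5 genes run from 1 of 5 in ESCs to 5 of 5 in D-EPSCs, while all coding genes run from 52.3% to 64.2%.

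The 27 regions were sorted by the lists with a peak in them. Of these, 7 regions, or 25.9%, held a peak of all 3 lists, with a 95% Wilson interval of 13.2 to 44.7% that covers counting error only. Over all regions of the genome this share was 33.2%. Another 7 regions, or 25.9%, held peaks of both EPSC lists and none of ESCs, against 18.4% of all regions. Regions with a D-EPSC peak alone numbered 8, or 29.6% against 22.3%, and those with an L-EPSC peak alone numbered 4, or 14.8% against 15.8%. No region held an ESC peak alone, against 5.12% of all regions. A count of 0 of 27 allows a share of up to 11.1% when the limit is set at 3 counts, and up to 12.5% by the Wilson interval. The 0 was not kept under other settings: at equal list length 3 regions held an ESC peak alone, and 1 did in a window of 50 kb or among peaks of 250 bp or more. The cut at equal length kept ESC peaks down to 128 bp, D-EPSC peaks down to 309 bp and L-EPSC peaks down to 279 bp. Those 3 regions, both Grhl2 regions with an ESC peak and the one 14.1 kb after the Foxd3 start, lost narrower EPSC peaks to it. The Foxd3 region is also the one at 250 bp or more, so neither width setting shows a site of ESCs alone. None held peaks of ESCs and D-EPSCs alone, against 2.3% of all regions, and the remaining region (3.70% against 2.92%) held an ESC and an L-EPSC peak. In all, 19 regions, or 70.4% with an interval of 51.5 to 84.1%, had no ESC peak, against 56.5% of all regions and 54.8% of those in the windows of coding genes.

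Regions without an ESC peak were found both near the starts and away from them. Of the 8 regions within 2 kb of a start of the 5 genes, 1 had an ESC peak, while 7 had one of D-EPSCs and 7 one of L-EPSCs. Among all regions within 2 kb of a start of a coding gene the shares were 64.9, 91.0 and 85.2%. Of the 19 farther away, the numbers were 7, 15 and 12, beside 35.0, 70.3 and 64.3% of all regions farther from every coding start. The ESC count was thus near the share of all regions away from the starts and below it near them. Near a start the median GC content was 68.3%, against 52.3% in the others, and CpG observed/expected was 0.846 against 0.328. Measured over peaks of each list rather than regions, 12.5% of the ESC peaks (1 of 8) had their midpoint within 1 kb of a coding start, against 21.7% in D-EPSCs (5 of 23) and 25.0% in L-EPSCs (5 of 20). Among all peaks the shares were 37.9, 28.4 and 29.1%, so ESCs had the highest share among all peaks and the lowest around the 5 genes. The order of the EPSC lists around the genes was not kept: it turned to 28.6% for D-EPSCs and 16.7% for L-EPSCs at equal list length, to 30.8 and 25.0% in the widest 50% of each list, and to 28.6 and 23.1% for peaks of 250 bp or more. The intervals of the 3 shares around the 5 genes overlap, at 2.24 to 47.1%, 9.66 to 41.9% and 11.2 to 46.9%.

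At Fgf5, the ligand gene (chr5:98683203-98706049, plus strand), all peaks lay within 2068 bp of the start. The ESC peak was 168 bp wide and ran from 319 to 152 bp before the start. The D-EPSC peak, 665 bp wide, began 200 bp before the start and ran 464 bp into the gene, over the 5′ UTR and the first coding exon. The L-EPSC list had 2 peaks there, of 464 and 118 bp, from 217 bp before the start to 375 bp after it. The 3 lists had 49 bp in common here, with the ESC peak wholly upstream of the start and the EPSC peaks over it. The other region, 1.82 kb inside the gene in an intron, held 493 bp of D-EPSC peak, and the L-EPSC peak of 347 bp lay wholly within it.

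At Otx2 (chr14:49277354-49287319, minus strand, with 7 annotated starts), both ESC peaks lay outside the gene. The upstream one, 6.80 kb before the outermost start, had an ESC width of 297 bp, a D-EPSC width of 1334 bp and an L-EPSC width of 548 bp. The D-EPSC peak here was at least as wide as 97.5% of its list, and the ESC peak at least as wide as 36.9% of its own. The downstream region, 12.4 kb from the outermost start and past the end of the gene, was wide in all 3 lists, with 810, 1105 and 1038 bp, of which 764 bp were common. Inside the gene, in an intron 1.53 kb from the outermost start, the D-EPSC peak was 850 bp wide, the L-EPSC peak was 239 bp wide, and the ESC list had none. A D-EPSC peak of 122 bp, 13.8 kb from the outermost start, completed the set.

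Pou3f1 (chr4:124334896-124337899, plus strand) had peaks in the EPSC lists alone. A D-EPSC peak of 748 bp ran from 530 bp before the start to 217 bp after it, over the 5′ UTR and part of the coding exon. The L-EPSC peak there was 712 bp wide and ended 69 bp before the start, so the lists had 462 bp in common. A second L-EPSC peak, 257 bp wide, lay in the coding exon, 0.72 kb inside the gene. D-EPSC peaks of 362, 140 and 384 bp lay 10.7 and 4.545 kb before the start and 10.5 kb after it, and none of them met an L-EPSC peak. The EPSC lists thus overlapped at the start of Pou3f1 and nowhere else in its window.

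Foxd3 (chr4:99322990-99325362, plus strand) had the most ESC peaks of the 5 genes, and none of them lay near its start. The region 14.1 kb upstream was of like width in the 3 lists, with 545 bp for ESCs, 494 bp for D-EPSCs, 448 bp for L-EPSCs and 437 bp common to them. A region 5.565 kb upstream held 1 ESC peak of 556 bp, 2 D-EPSC peaks of 220 and 447 bp and 1 L-EPSC peak of 654 bp. A D-EPSC peak of 1581 bp, at least as wide as 99.0% of the D-EPSC list, ran from 137 to 1717 bp after the start, over part of the 5′ UTR and of the coding exon. An L-EPSC peak of 582 bp lay inside it, from 1074 to 1655 bp after the start, in the coding exon. Past the gene, a region at 4.86 kb held peaks of both EPSC lists, of 223 and 129 bp. L-EPSC peaks alone were found 20.05 kb before the start and 7.61 and 19.04 kb after it, with 302, 335 and 196 bp. The single region with an ESC peak and no D-EPSC peak lay 14.1 kb after the start, over the noncoding gene Gm12682, with 338 bp in ESCs and 118 bp in L-EPSCs.

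Grhl2 (chr15:37162791-37293324, plus strand, with 4 annotated starts), the longest of the 5 genes, had 8 regions. Its ESC peaks were narrow, 168 bp at 5.83 kb and 128 bp at 95.8 kb inside the gene, both in introns. Both were met by EPSC peaks of nearly the same width, 181 and 162 bp at the first and 130 and 118 bp at the second. The start held a D-EPSC peak of 216 bp, from 64 bp before the outermost start to 151 bp after it, over the 5′ UTR. The noncoding gene Gm16136 starts 273 bp inside Grhl2 on the opposite strand, so this peak lies at both starts. In the intron 1.24 kb inside the gene, the D-EPSC peak measured 821 bp and the L-EPSC peak 355 bp. A region 17.2 kb upstream also held peaks of both EPSC lists, and there the L-EPSC peak, with 522 bp, was wider than the D-EPSC peak, with 376 bp. D-EPSC peaks alone lay in an intron at 11.1 kb, with 505 bp, and over a coding exon at 46.5 and 46.6 kb, with 151 and 119 bp.

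The relation between the widths in the 3 lists differed from region to region. The widths of a list's peaks in a region were summed where it had 2. In the 7 regions with a peak of all 3 lists, the D-EPSC width was above the ESC width in 6, as in 72.1% of all such regions, the exception being the region 14.1 kb before Foxd3. One of the 6, the region 5.565 kb before Foxd3, counts by the sum of its 2 D-EPSC peaks, each narrower than the ESC peak. The L-EPSC width was above the ESC width in 4, against 70.2% of all such regions, and below it in 3, in the Foxd3 region at 14.1 kb and in both Grhl2 regions. In the 7 regions of both EPSC lists alone, the D-EPSC width was above the L-EPSC width in 6, against 54.9% of all such regions, the exception being the region before Grhl2. The median peak width around the 5 genes was 318 bp for the ESC list, 384 bp for D-EPSC and 341 bp for L-EPSC, with 95% order-statistic intervals of 128 to 810, 216 to 665 and 196 to 522 bp that overlap. Over whole lists the medians were 369, 364 and 358 bp.

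**Figure D4:**
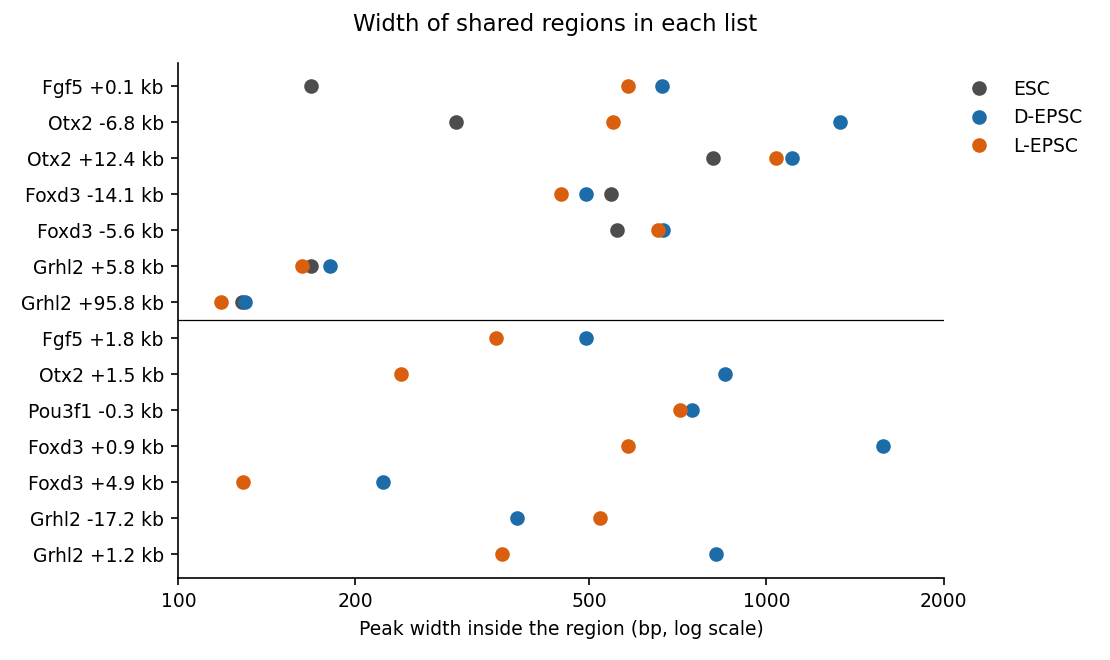
Peak width in bp (summed where a list has 2 peaks), on a log scale, in each list for the 7 regions with a peak of all 3 lists (above the line) and the 7 with peaks of both EPSC lists and none of ESCs (below it), named by gene and distance in kb from the outermost start to the region midpoint. The Grhl2 regions at 5.83 and 95.8 kb and the Foxd3 region 14.1 kb upstream have close widths in the 3 lists, while those at the Fgf5 start and before Otx2 are widest in D-EPSCs and narrowest in ESCs.

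GC content over the 27 regions had a median of 55.5%, against 53.5% over all regions, and for CpG observed/expected the medians were 0.479 and 0.292. Short motif words were searched as exact matches on either strand of the 400 bp centred on a region. A word is a simplification of a binding motif, and a match is no binding site. The OTX word TAATCC was found in 2 regions, 7.41% against 10.5% of all regions, namely the Fgf5 intron and the region 10.5 kb after Pou3f1. The forkhead word TGTTTAC was found in 2, 7.41% against 4.50%, the Fgf5 intron and the Grhl2 intron at 5.83 kb, where the word begins just past the end of the D-EPSC peak. The Grhl2 intron also held the SOX word CATTGTT, as did the region 19.04 kb after Foxd3, which gives 7.41% against 5.52%. The ZFP281 word CCCCTCCCC was found in 2, 7.41% against 7.84%, after Otx2 and in the search window of the region 4.86 kb from Foxd3, just past the edge of that region. In these windows no region held the octamer ATGCAAAT, the GRHL word AACCNGTT, the TCF/LEF word CTTTGAT or the ESRRB word TCAAGGTCA, which were found in 2.85, 2.79, 4.88 and 1.47% of all regions.

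Other genes of formative and primed pluripotency, read by the same rule, had start peaks more often than the 5 genes in ESCs. Of 28 such genes 27 could be used, because Sox4 had 2 entries in the annotation. The ESC list had a start peak for 20 of them, the D-EPSC list for 25 and the L-EPSC list for 23, beside 52.3, 64.2 and 61.5% of all coding genes, and all 20 with one in ESCs had one in both EPSC lists. The genes that differed were Lef1, Nodal and Tead2, with start peaks in both EPSC lists, and Sox3 and Fgf8, with one in D-EPSCs alone. A start peak in D-EPSCs and not in ESCs was thus found for 5 of the 27, beside 12.4% of all coding genes. One in L-EPSCs and not in ESCs was found for 3 of the 27, beside 10.0% of all. Lef1 is an effector of WNT signalling and Nodal a ligand that maintains the primed epiblast. T and Cer1, genes of mesoderm and of anterior endoderm, had no start peak in any list. The median number of peaks per window was 3, 6 and 4, and 24 of the 27 had more peaks in D-EPSCs, and 19 in L-EPSCs, than in ESCs, beside 56.5 and 52.5% of all coding genes.

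Naive pluripotency genes, which mark the cells as pluripotent stem cells, had a start peak in 11 of 14 cases by the ESC list, 13 by D-EPSC and 12 by L-EPSC, beside 52.3, 64.2 and 61.5% of all coding genes. Nr0b1 and Nanog had one in both EPSC lists and not in ESCs, Tcl1 had one in ESCs and D-EPSCs, and Dppa3 had none. Of 18 paralogs of the 5 genes, 10, 15 and 12 had a start peak, to be set against those same shares. Among them Crx, Pou3f4, Fgf1 and Fgf8 had one in D-EPSCs alone, Pou3f3 and Fgf9 in both EPSC lists, Fgf3 in ESCs and L-EPSCs, and Fgf6 and Fgf7 in none. A start peak in D-EPSCs and not in ESCs was found for 2 of the 14 naive genes and 6 of the 18 paralogs, and one in L-EPSCs and not in ESCs for 2 and 2, beside 12.4 and 10.0% of all coding genes. More peaks in D-EPSCs than in ESCs were found for 10 of the 14 naive genes and 15 of the 18 paralogs, beside 56.5% of all. For L-EPSCs the numbers were 11 and 13, beside 52.5%. Of 5 genes that mark fibroblast feeder cells, 2 had a start peak in ESCs (Thy1 and Twist2), 4 in D-EPSCs (these and Col1a1 and Col1a2) and 1 in L-EPSCs (Col1a1), and Col3a1 had none. By the study's methods both EPSC states were kept without feeders over several passages before the assay, while ESCs were grown on feeder cells or on gelatin. The part of feeder cells in the results around the 5 genes was not tested.

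**Figure D5:**
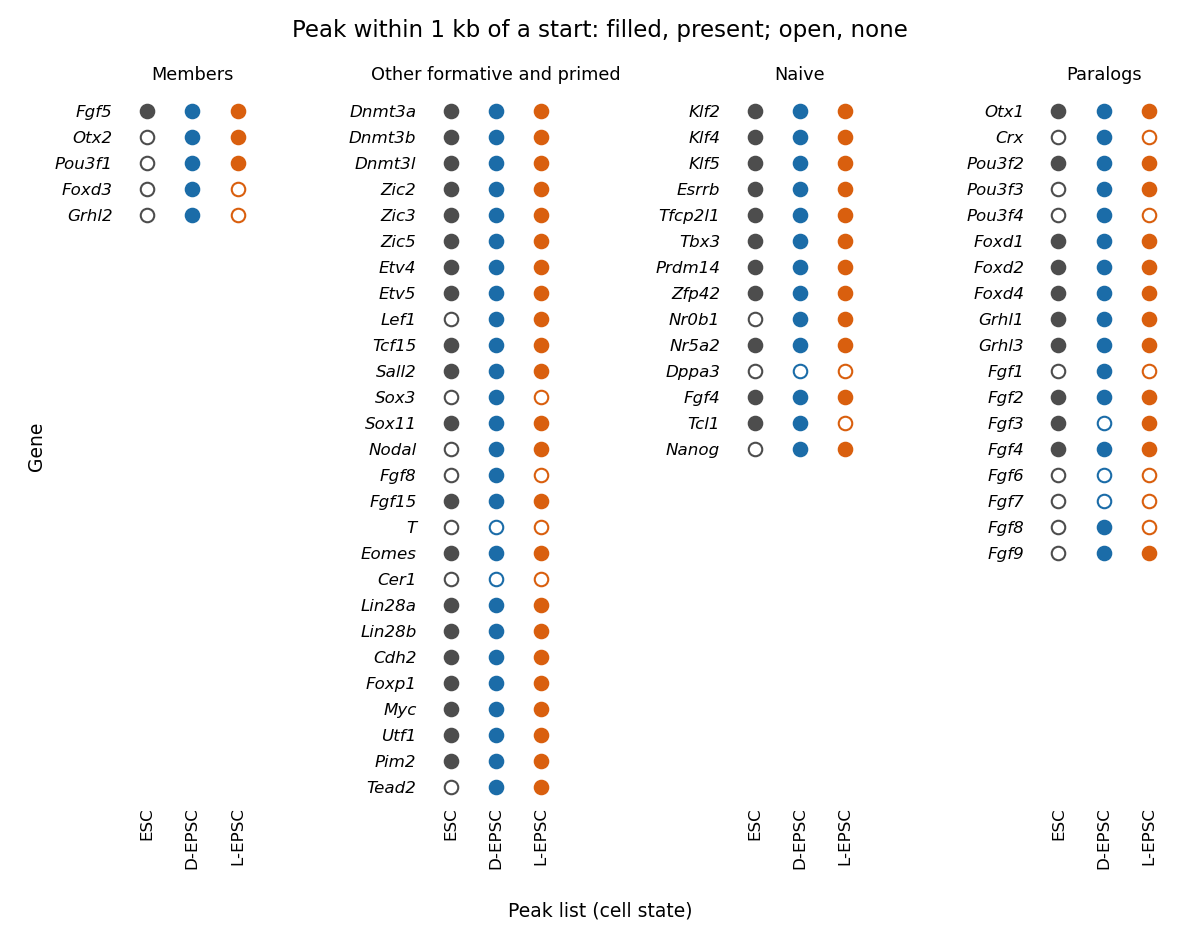
Presence of a peak within 1 kb of a start in the ESC, D-EPSC and L-EPSC lists (columns), with a filled circle for a peak and an open circle for none, for the 5 genes, 27 other formative and primed genes, 14 naive genes and 18 paralogs. In ESCs 1 of the 5 genes has a filled circle, against 20 of the 27 other formative and primed genes.

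Genes with a like pattern were found by the Euclidean distance over 12 values, the bases covered in 4 zones (before the gene, within 1 kb of a start, elsewhere in the gene and after it) in the 3 lists, each as log2 of the bases plus 100. A distance of 0 would be an identical pattern. The closest to Fgf5 were Brwd3 at 0.569, Maged1 at 1.07 and Fbxo21 at 1.08. The closest to Otx2 were Fgf22 at 1.20, Vps28 at 1.26 and Hes2 at 1.28, and those closest to Pou3f1 were Fam123a at 1.55, Hist1h2al at 1.84 and Cdcp1 at 1.85. Grhl2 was closest to Itga11 at 1.69, H60b at 1.73 and Slit1 at 1.84. Foxd3 had the least close neighbours of the 5, with Stra8 at 2.37, Crb2 at 2.51 and Shd at 2.54. Foxd3 also had peaks in all 4 zones, against 2 zones for Fgf5 and 3 for Otx2, Pou3f1 and Grhl2. A zone empty in both genes adds nothing to a distance, so the distances do not rank how unusual the patterns are.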

How the data were processed

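ATAC-seq libraries of ESCs, D-EPSCs and L-EPSCs, 2 technical replicates each, were trimmed with Trim Galore 0.6.3, aligned by the authors to mm9 with Bowtie2 2.3.5, filtered with SAMtools 1.10, and peaks were called with MACS at default settings, per the study's methods and the submitters' processing notes. How replicates were combined, duplicate removal and any shift for the transposase are not given in the sources used here. The deposited lists, 1 per state, give for each peak its start and its end in bp. The lists have no score and no value per replicate, so depth is unknown and no test was made.

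Chromosomes 1 to 19, X and Y were kept. Peaks sharing at least 1 bp were merged into regions. Genes were those of GENCODE M1 and the sequence was NCBIM37, the assembly that mm9 names. Every peak end lay within its chromosome lengths. The promoter table from RefSeq held Fgf5, Otx2 and Foxd3, and the starts it gives for Fgf5 and Foxd3 were those of GENCODE. From the RefSeq starts of Otx2 the nearest D-EPSC peak was 581 bp away and the nearest L-EPSC peak 975 bp away. The nearest GENCODE start gave 169 and 774 bp. From the outermost Otx2 start both were more than 1 kb away, at 1105 and 1111 bp, so its start peaks rest on inner starts. For Pou3f1 the protein-coding entry was used, not the pseudogene entry that overlaps it.

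The 5 genes and the comparison lists were chosen with earlier results of these data known. The genes named are the 5, with every region in their windows, the genes of the other lists whose start-peak status differs between lists or that have none, and the 3 closest patterns to each. The comparison with genes at or above the CpG value of Otx2, the shares at equal list length and the shares of all regions by distance from a start and by width were added after the values had been seen. Alternatives were windows of 10 and 50 kb, the widest peaks at equal list length, the widest 50% of each list, peaks of 250 bp or more, other merging rules and other start distances. Intervals are 95% Wilson or order-statistic intervals and cover counting error only. Python 3.11.15 was used with numpy 2.4.6, scipy 1.17.1, pysam 0.24.0 and matplotlib 3.10.9, and all 10 steps checked on simulated lists gave the known answer or that of bedtools 2.31.1.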

Additional observations from a re-analysis of the deposited data

How the results depend on the processing

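Of 133 recomputed values around the 5 genes, 98 stayed close to the value reported and 35 moved, where close means within 1.5 times for a count or number of bases and within the 95% interval of the reported value for a share or median. Both EPSC lists had more peaks and more covered bases than the ESC list under each alternative run. A 10 kb window left 2 regions with an L-EPSC peak alone and 0 with ESC and L-EPSC peaks. A 50 kb window gave 15 ESC peaks over 5523 bp, 12 regions in all 3 lists, 1 with an ESC peak alone and 1 with ESC and D-EPSC peaks. The widest peaks at equal list length gave 14 D-EPSC and 12 L-EPSC peaks, with 4 regions in D-EPSCs alone, 2 in L-EPSCs alone, 3 in ESCs alone and 0 in ESCs and L-EPSCs. The 3 in ESCs alone had narrower EPSC peaks that the width cut removed. The widest 50% gave 3 ESC peaks over 1911 bp, 13 D-EPSC and 8 L-EPSC peaks, median widths of 556 bp for ESCs, 665 bp for D-EPSCs and 565 bp for L-EPSCs, 3 regions in all 3 lists, 5 in D-EPSCs alone and 0 in L-EPSCs alone or in ESCs and L-EPSCs. At 250 bp or more the medians were 545, 585 and 464 bp, so the L-EPSC median was below that of ESCs. Peaks of 250 bp or more gave 5 ESC, 14 D-EPSC and 13 L-EPSC peaks, 4 regions in all 3 lists, 4 in D-EPSCs alone, 1 in ESCs alone and 0 in ESCs and L-EPSCs. The 1 in ESCs alone lost an L-EPSC peak of 118 bp. Under these last 2 settings the ESC list had 0 genes with a start peak and a share of 0% near coding starts, because the Fgf5 peak is 168 bp wide. Requiring 100 bp of overlap for merging gave 1 region in ESCs alone, and a start distance of 2.5 kb gave 5 genes with a start peak in L-EPSCs. A start distance of 500 bp gave 2 such genes.

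No paired analysis was possible because the files give 1 list per state without replicate values, and leaving out a replicate was equally not possible. Depth per list is unknown, so a weak peak missing from the ESC list and closed chromatin cannot be told apart.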
